A study of Mus musculus with 6 samples.

Results

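The genes described here encode the subunits of the SWI/SNF and NuRD chromatin remodelling complexes, the histone deacetylases (HDACs and sirtuins) and the main histone acetyltransferases. They were chosen by name, as 57 symbols listed for these complexes and enzyme families. All 57 were found among the 46983 genes of the deposited count table, and all 57 passed the filter on low counts. Of them, 20 are SWI/SNF subunits, 7 are NuRD subunits, 11 are HDACs, 7 are sirtuins, 9 are acetyltransferases, and 3 are the ISWI ATPase Smarca5 and the BET proteins Brd2 and Brd3.

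Chromatin remodellers use ATP to slide or evict nucleosomes, while acetyltransferases and deacetylases add and remove acetyl groups on histone tails and on many other proteins. SWI/SNF opens chromatin and exists in canonical (BAF), polybromo (PBAF) and non-canonical (ncBAF) forms, each built around an interchangeable ATPase, SMARCA4 or SMARCA2. NuRD joins the remodeller CHD4 to the deacetylases HDAC1 and HDAC2 and is known mainly as a repressor. Acute myeloid leukemia cells driven by MLL fusions are known to depend on several of these proteins, among them SMARCA4, BRD9 and the acetyltransferase KAT7.

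The RNA, selected by its poly-A tail, came from mouse leukemia cells carrying MLL-AF9, a fusion oncogene of human leukemia, delivered by retrovirus. The cells came from Alox5-/- C57BL/6J donors, which lack functional 5-lipoxygenase, and were compared with cells from wild-type (WT) C57BL/6J donors, with 3 libraries in each group, all untreated. In both groups, stem and progenitor cells of the bone marrow, sorted as lacking lineage markers and bearing Sca-1 and c-Kit, had been transduced, and the series' text describes transplantation of GFP-positive cells into irradiated C57BL/6J recipients. Both groups carry the oncogene and the retrovirus, so no comparison with normal cells can be made. The labels give each genotype 1 line name and number its libraries as biological replicates, without naming the animals. The p-values below therefore reflect the spread between these libraries alone, which may be technical. The age and sex of the mice, and how many recipients or clones each line holds, were not stated in the labels read here. Any such difference between the lines cannot be told apart from genotype, for any gene below. Xist, given below, differed strongly between them.

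Gene counts ranged from 28985597 to 30677796 in the Alox5-/- libraries and from 30239105 to 38695948 in the WT libraries. Alox5 itself was lower in Alox5-/- cells but not absent, with 65.6, 62.1 and 64.9 CPM in Alox5-/- cells, against 102, 106 and 106 CPM in WT (CPM, read counts scaled to library size; log2 change -0.70, edgeR adjusted p = 7.65e-10). Counts per gene do not show which exons these reads came from, so they check the labels only by direction. Alox5-/- replicate 2 was the library farthest from its own group. Of the 7 markers of leukemic progenitors 3 were higher (Cd34, Hoxa9 and Ptprc) and 2 lower (Kit and Itgam). Cd34 stood at 224 to 230 CPM in Alox5-/- cells, against 174 to 180 CPM in WT, and Hoxa9 had a log2 change of 0.33. Kit stood at 134 to 139 CPM in Alox5-/- cells, against 156 to 162 CPM in WT, whereas Ly6a, which encodes the Sca-1 used to sort the donor cells, was at only 0.58 to 0.87 CPM in Alox5-/- cells, against 0.88 to 1.21 CPM in WT, and was not called. Markers of B, T and NK cells summed to at most 0.205 CPM in Alox5-/- cells, against 0.445 CPM in WT over 8 genes, with Cd3e and Cd3g at 0 in every library, and 6 erythroid markers summed to at most 0.787 CPM in Alox5-/- cells, against 0.865 CPM in WT. Of the 7 macrophage markers 3 passed the filter, with sums of 66.1 to 70.6 CPM in Alox5-/- cells, against 73.8 to 75.6 CPM in WT, and Cd5l was at 0 throughout. The 3 went different ways, with log2 changes of 2.04 for Vcam1, -0.39 for Adgre1 and -0.67 for Slc40a1. Of the 7 stromal and endothelial markers 2 passed it, and the list's sum, 194 to 199 CPM in Alox5-/- cells, against 174 to 175 CPM in WT, was almost all Pecam1. Neutrophil markers differed, summing to 24.9 to 27.2 CPM over 6 genes in Alox5-/- and 56.3 to 61.9 CPM in WT, with 4 of the 5 tested lower and 1 higher; their part in the values below was not tested. In bulk RNA, fewer cells of a type and less RNA per cell cannot be told apart.

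Across the 57 genes, 13 were higher and 19 lower in Alox5-/- cells (edgeR's quasi-likelihood test, Benjamini-Hochberg adjusted p under 0.05 over all tested genes), and 25 were not called. The share called, 56.1%, lay close to the 53.8% called among all 13705 tested genes. By direction, 22.8% of them were higher, against 26.8% of all tested genes, and 33.3% were lower, against 27.0%. For 34 of the 57 (59.6%) every library of one genotype lay above every library of the other, as it did for 60.0% of all tested genes. Their changes were small. The median size of the log2 change was 0.12, against 0.19 over all tested genes, and only 8 called members reached 0.3 in size (14.0%), against 26.8% of all tested genes. No member reached a 2-fold change. Only 4 of the 57 were under 10 CPM in WT, and these sizes were not compared with those of genes at a like level.

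**Figure D1:**
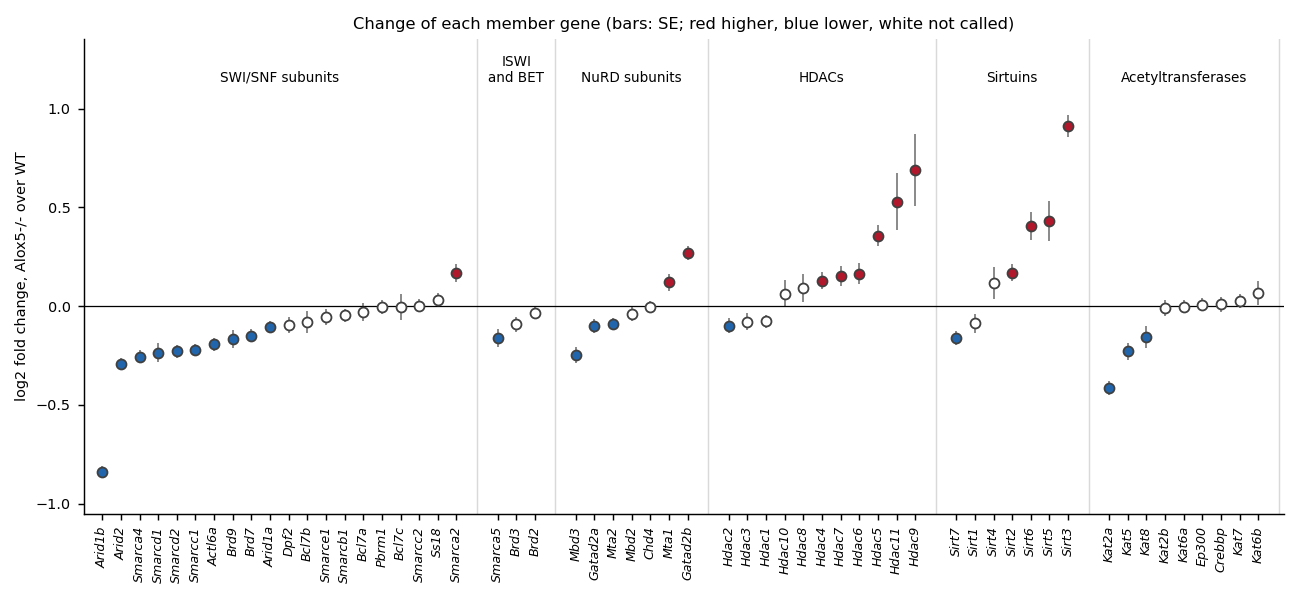
Log2 fold change of each of the 57 genes, Alox5-/- over WT, ordered within each family. Points are edgeR estimates from 3 libraries per group, bars are standard errors, and filled points passed the adjusted p threshold. SWI/SNF subunits lie mostly at or below 0, with Arid1b at -0.84, whereas HDACs outside class I lie above 0, and Sirt3, at 0.91, stands highest.

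Among the 20 SWI/SNF subunits, 10 fell, 1 rose and 9 were not called, and the median was -0.10 on the log2 scale. Among the 11 HDACs, 6 rose, 1 fell and 4 were not called (median 0.13), and among the 7 sirtuins 4 rose, 1 fell and 2 were not called (median 0.17). The 7 NuRD subunits were divided, with 2 higher, 3 lower and 2 not called (median -0.04). Of the 9 acetyltransferases none rose, 3 fell and 6 were not called (median 0.00). The median over all tested genes was 0.00, and their quartiles were -0.17 and 0.21. Of all tested genes 53.8% were called, 26.8% higher and 27.0% lower, the background for the counts here and below. The share called was 55% of the SWI/SNF subunits and 63.6% of the HDACs. It was 71.4% of the sirtuins and of the NuRD subunits, and 33.3% of the acetyltransferases. These family counts are descriptions, since no test compared one family with another.

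The largest fall among all 57 was in Arid1b, an ARID subunit of canonical BAF that takes the place of ARID1A in a given complex. Arid1b stood at 192, 192 and 192 CPM in the Alox5-/- libraries and 347, 335 and 348 CPM in the WT libraries. The 3 Alox5-/- values were almost equal, and every one lay far below the lowest WT library. Its log2 change was -0.84 (SE 0.03; edgeR adjusted p = 1.84e-11), a 1.79-fold lower level. Arid1b (ENSMUSG00000069729.13) lies on the plus strand of chromosome 17 from 4994332 to 5347656 in mm10, by the GENCODE annotation. Its nearest tested neighbours did not show a change of this size. On the side of lower coordinates this is Tfb1m, a mitochondrial rRNA methyltransferase gene that ends far away, at base 3557781. Tfb1m was 15.9 ± 0.703 CPM in Alox5-/- cells, against 13.8 ± 1.25 CPM in WT cells (SD, n = 3 each), a log2 change of 0.21. Tmem242, on the other side, was 39.6 ± 0.693 CPM in Alox5-/- cells, against 42.6 ± 0.906 CPM in WT and was not called (edgeR adjusted p = 0.055). These neighbours were chosen after the member values had been seen.

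The largest rise was in Sirt3, the main deacetylase of the mitochondrial matrix. Sirt3 stood at 29, 27.6 and 27.1 CPM in Alox5-/- cells, against 14.6, 14.9 and 15.0 CPM in WT. The lowest Alox5-/- library was well above the highest WT library. The log2 change was 0.91 (SE 0.06; edgeR adjusted p = 5.34e-09), a 1.88-fold higher level. Sirt3 (ENSMUSG00000025486.16) spans bases 140863666 to 140882309 of chromosome 7 (minus strand) and is flanked by genes on the opposite strand. It shares 418 exon bases (6.998% of its exons) with Ric8 at its 3′ end and 342 (5.73%) with the proteasome subunit gene Psmd13 at its 5′ end. Ric8, which encodes a chaperone of G protein alpha subunits, was also higher, at 117 ± 2.25 CPM in Alox5-/- cells, against 94.2 ± 2.09 CPM in WT (log2 change 0.31; edgeR adjusted p = 2.49e-06). Psmd13 moved the other way, at 142 ± 0.664 CPM in Alox5-/- cells, against 163 ± 6.11 CPM in WT (log2 change -0.20; edgeR adjusted p = 0.000206). The strand setting of the counting is not given, and the part of reads from these shared bases in the Sirt3 value was not tested.

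Windows at an annotated start of these 2 genes are shown because the genes hold the largest changes in opposite directions. The Sirt3 window also lies inside the annotated Psmd13 gene on the other strand. Sequences are from RefSeq (GRCm38.p6), 250 bases before to 50 after an annotated start, written 5′ to 3′ on the gene's strand. Capitals mark the GC box, with the letters GGGCGG, the box with the letters CCAAT, and the ETS core, with the letters CGGAAG, on either strand. The windows are chr7:140882260-140882559 (minus strand) for Sirt3 and chr17:4994824-4995123 (plus strand) for Arid1b. The Arid1b window lies wholly inside the annotated gene, past its GENCODE start at base 4994332. It is therefore not the sequence before that start, and its letters are not read here as those of the Arid1b promoter.
Sirt3: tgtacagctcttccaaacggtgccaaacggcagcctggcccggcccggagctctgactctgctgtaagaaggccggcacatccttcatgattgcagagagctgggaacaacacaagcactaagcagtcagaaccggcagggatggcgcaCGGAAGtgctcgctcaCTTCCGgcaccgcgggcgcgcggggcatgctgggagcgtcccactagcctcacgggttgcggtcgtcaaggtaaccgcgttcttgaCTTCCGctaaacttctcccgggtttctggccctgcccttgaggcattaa
Arid1b: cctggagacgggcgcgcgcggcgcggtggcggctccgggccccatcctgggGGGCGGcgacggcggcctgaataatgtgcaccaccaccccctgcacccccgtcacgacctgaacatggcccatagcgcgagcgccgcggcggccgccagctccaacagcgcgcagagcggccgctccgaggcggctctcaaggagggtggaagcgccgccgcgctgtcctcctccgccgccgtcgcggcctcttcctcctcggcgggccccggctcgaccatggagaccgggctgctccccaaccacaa

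The Sirt3 window held 3 ETS cores, no GC box and 23 CpG dinucleotides. The Arid1b window, inside the gene, held 1 GC box, no ETS core and 42 CpG dinucleotides, so the 2 do not compare promoters. Windows were found for 48 of the 57 genes. A GC box was present in 75% of them and in 35.7% of all 32851 windows in the RefSeq table, an ETS core in 29.2% and 16.9%, and a CCAAT box in 33.3% and 37.4%. E-boxes (CACGTG) were in 12.5% and 7.15%, and the NRF1 palindrome in 2 of the 48 (4.17%) and in 0.971% of all windows. The CRE palindrome TGACGTCA, the E2F letters TTTCGCGC and the ATF4-CHOP letters TTGCATCA were in none of the 48, and in 1.79%, 0.323% and 0.895% of all windows. The members have 1 window each, while the RefSeq table counts every window, whether or not the gene was expressed here. Over all its windows the median was 7 CpG dinucleotides. The shares were not matched for CpG content or expression, so they do not set these genes apart from other expressed genes. Both strands were searched, and a match in letters is not a binding site.

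The SWI/SNF ATPases moved apart. Smarca4, the main ATPase of these cells by level, stood at 292, 292 and 283 CPM in Alox5-/- cells, against 355, 334 and 347 CPM in WT. Its log2 change was -0.26 (SE 0.03; edgeR adjusted p = 1.09e-05), and the groups did not overlap. Smarca2, its alternative in the same complexes, was 44.6, 44.2 and 44.0 CPM in Alox5-/- cells, against 38.7, 41.6 and 38.2 CPM in WT. It was the only called SWI/SNF member that was higher, with a log2 change of 0.17 (SE 0.05; edgeR adjusted p = 0.00647). Per kilobase of exon, Smarca4 remained far more abundant, at 44.7 CPM per kb in Alox5-/- and 53.3 CPM per kb in WT, against 3.10 and 2.77 CPM per kb for Smarca2. The lengths used pool the exons of all annotated transcripts, 6475 bases for Smarca4 and 14269 for Smarca2. They can exceed the length of the expressed RNA.

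Of the 11 core and accessory subunits, some of which are absent from 1 of the forms, 4 fell and none rose. That is 36.4% called, against 53.8% of all tested genes. Smarcc1, a scaffold subunit, was 190 ± 2.54 CPM in Alox5-/- cells, against 222 ± 1.14 CPM in WT, a log2 change of -0.22 (edgeR adjusted p = 1.70e-05). Its paralogue Smarcc2 was at 176 ± 3.68 CPM in Alox5-/- cells, against 176 ± 4.19 CPM in WT and was not called. Smarcd1 and Smarcd2, alternative members of another core position, had log2 fold changes of -0.23 each, so both copies fell by a like amount. Actl6a, an actin-related subunit that also serves in other remodellers and shares 11.6% of its exon bases with Mrpl47 on the other strand, had a log2 change of -0.19. Smarcb1 (-0.05), Smarce1 (-0.05), Ss18 (0.03) and Bcl7a (-0.03), Bcl7b (-0.08) and Bcl7c (0.00) were not called.

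Among the 7 listed subunits that set the form of the complex, 5 fell (71.4%, against 27.0% of all tested genes), from each of the 3 forms. Subunits outside the list did not share this. Of the 6 tested SWI/SNF partners described further below, 2 rose, Phf10 of PBAF (0.77) and Gltscr1l of ncBAF (0.17), 1 fell and 3 were not called. In canonical BAF, besides Arid1b, Arid1a was 345 ± 1.39 CPM in Alox5-/- cells, against 371 ± 9.07 CPM in WT (log2 change -0.11; edgeR adjusted p = 0.00731), and its call was lost without WT replicate 1 (edgeR adjusted p = 0.0501). In PBAF, Arid2, the ARID subunit of that form, was 350 ± 0.699 CPM in Alox5-/- cells, against 429 ± 8.58 CPM in WT. That is a log2 change of -0.29 (SE 0.03; edgeR adjusted p = 9.64e-07), the next largest SWI/SNF fall after Arid1b. Brd7, a bromodomain subunit of PBAF, fell by 0.15 on the log2 scale, and Pbrm1, the polybromo subunit, was at 231 ± 2.33 CPM in Alox5-/- cells, against 232 ± 9.83 CPM in WT. Brd9, the bromodomain subunit of ncBAF, was 65.0 ± 2.86 CPM in Alox5-/- cells, against 73.0 ± 3.27 CPM in WT (log2 change -0.17; edgeR adjusted p = 0.00472). Dpf2, a histone reader of canonical BAF, had a log2 change of -0.10 and was not called (edgeR adjusted p = 0.0537).

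**Figure D2:**
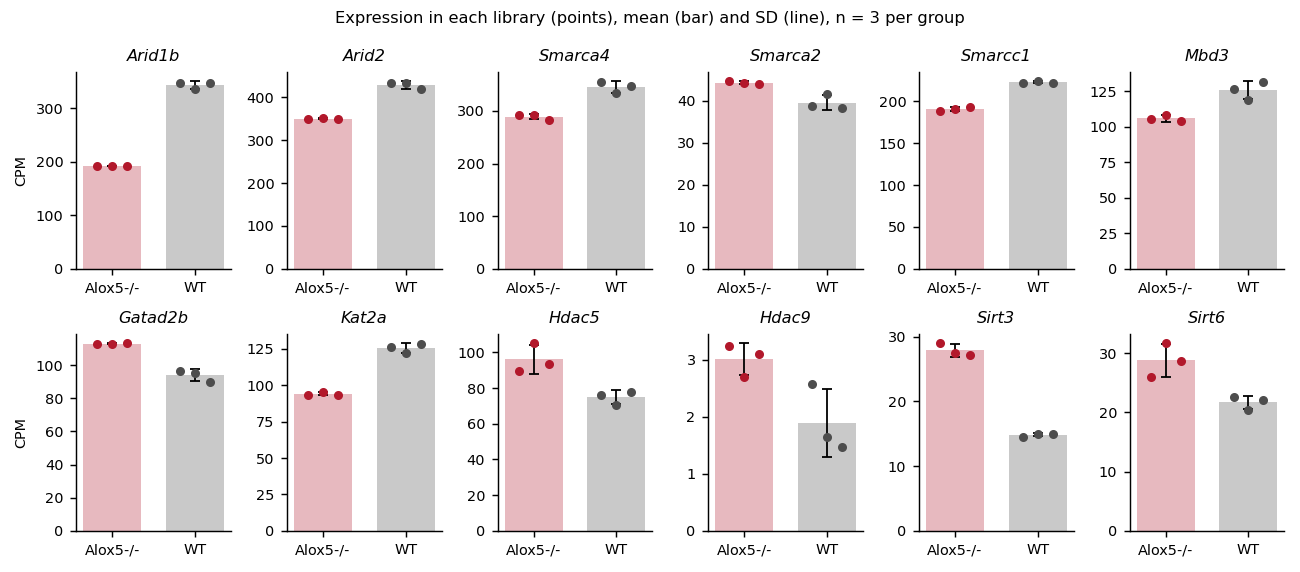
CPM in each of the 3 libraries per group (points) with the mean (bar, from 0) and SD (line) for 12 of the genes. Arid1b, Arid2, Smarca4, Smarcc1, Mbd3 and Kat2a were lower in every Alox5-/- library than in any WT library, and Smarca2, Gatad2b, Hdac5, Hdac9, Sirt3 and Sirt6 were higher in every one. The Hdac9 groups lay closest, with 2.70 CPM in the lowest Alox5-/- library and 2.58 CPM in the highest WT library.

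Outside SWI/SNF, Smarca5, the ATPase of ISWI complexes, which space nucleosomes, was 133, 136 and 136 CPM in Alox5-/- cells, against 148, 165 and 141 CPM in WT. The WT libraries varied more than the Alox5-/- libraries, yet did not overlap with them (log2 change -0.16, SE 0.05; edgeR adjusted p = 0.00893). The BET proteins, which read acetylated histones, were not called, with log2 fold changes of -0.04 for Brd2 and -0.09 for Brd3 (edgeR adjusted p = 0.0504).

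In NuRD, the ATPase Chd4 was the most abundant of the 57 genes per length and was not called. Chd4 stood at 723, 727 and 722 CPM in Alox5-/- cells, against 744, 710 and 723 CPM in WT, and the groups overlapped (log2 change 0.00, SE 0.03; edgeR adjusted p = 0.947). Per kilobase it was at 90.3 CPM per kb in Alox5-/- and 90.5 CPM per kb in WT. The changes lay in the paralogue pairs around it. The p66 subunits moved in opposite directions. Gatad2b was 113, 113 and 113 CPM in Alox5-/- cells, against 96.6, 95.6 and 89.9 CPM in WT (log2 change 0.27, SE 0.04; edgeR adjusted p = 1.69e-05). Gatad2a was 182 ± 4.83 CPM in Alox5-/- cells, against 195 ± 6.80 CPM in WT, with a log2 change of -0.10 (edgeR adjusted p = 0.0266). The MTA scaffold subunits also parted, with Mta1 at 0.12 (edgeR adjusted p = 0.0269) and Mta2 at -0.09 (edgeR adjusted p = 0.0229). Mbd3, which lacks affinity for methylated DNA in mammals, fell by 0.25 on the log2 scale (edgeR adjusted p = 8.08e-05), while Mbd2, which binds it, was not called (-0.04). The calls of Gatad2a and Mta2 were each lost without Alox5-/- replicate 1 or 3, or WT replicate 1 or 3 (edgeR adjusted p of up to 0.121 for Gatad2a and 0.11 for Mta2). That of Mta1 was lost without Alox5-/- replicate 2 or 3, or WT replicate 2 (up to 0.0985).

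**Figure D3:**
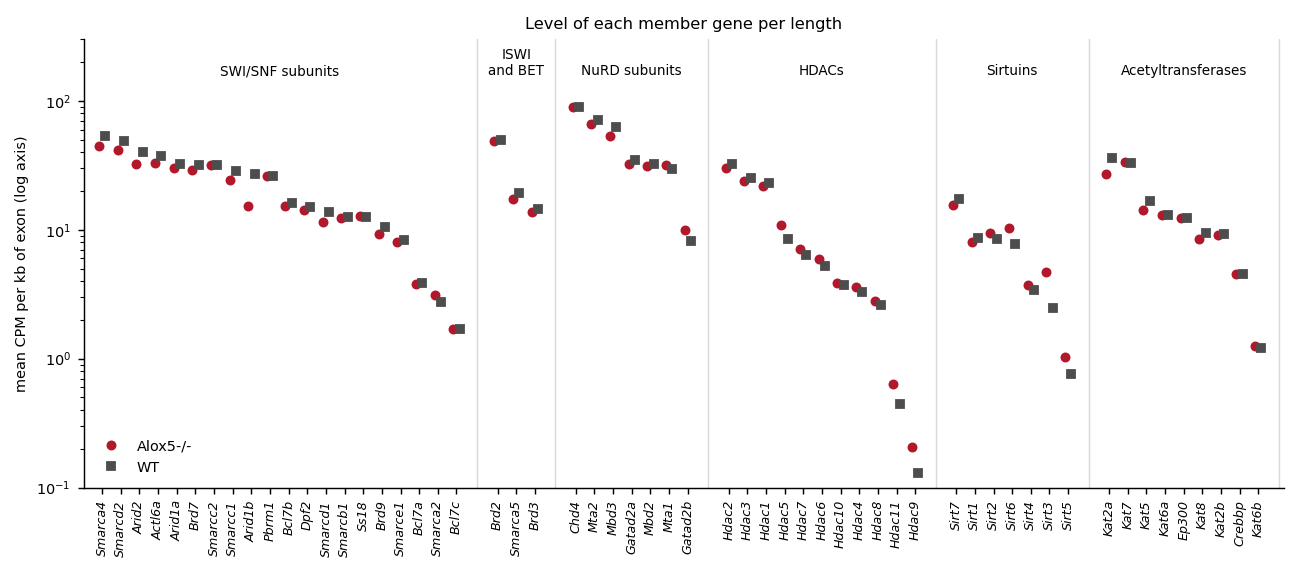
Mean CPM per kilobase of exon (log axis) for each gene in Alox5-/- (circles) and WT (squares), ordered by WT level within each family. Levels spanned from Chd4, at 90.3 in Alox5-/- and 90.5 in WT, to Hdac9, at 0.205 in Alox5-/- and 0.129 in WT, and differences between groups were small beside differences between genes.

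The class I HDACs, of which HDAC1 and HDAC2 serve in NuRD, SIN3 and CoREST and HDAC3 in NCoR, differed little between the groups, and 1 of the 4 passed the test. Hdac1 was 76.8, 75 and 75 CPM in Alox5-/- cells, against 79.0, 80.6 and 79.6 CPM in WT. Its groups did not overlap, but it was not called (log2 change -0.08, SE 0.03; edgeR adjusted p = 0.0689). Hdac2 was 136, 129 and 138 CPM in Alox5-/- cells, against 141, 149 and 141 CPM in WT. Its log2 fold change of -0.10 passed the threshold (edgeR adjusted p = 0.0346), but did so in only 5 of 13 alternative settings, and not with the DESeq2 test (adjusted p = 0.0607), nor without Alox5-/- replicate 1 (0.0516), Alox5-/- replicate 2 (0.194) or WT replicate 2 (0.0998). Hdac3 was 99.96, 90.9 and 101 CPM in Alox5-/- cells, against 99.8, 103 and 106 CPM in WT, overlapping and not called (edgeR adjusted p = 0.131). Hdac8, on the X chromosome, was not called either (0.09).

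All 4 class IIa HDACs, the signal-regulated enzymes that shuttle between nucleus and cytoplasm, rose, against 26.8% of all tested genes. Hdac5 changed most among those of appreciable level, at 89.6, 105 and 93.7 CPM in Alox5-/- cells, against 76.4, 70.6 and 78.0 CPM in WT. Its highest value came from Alox5-/- replicate 2, and the groups were still apart without it. The log2 change was 0.36 (SE 0.05; edgeR adjusted p = 5.43e-05), and stayed between 0.29 and 0.41 with each library left out in turn. Hdac9 was scarce, at 3.24, 2.70 and 3.09 CPM in Alox5-/- cells, against 2.58, 1.65 and 1.47 CPM in WT (log2 change 0.69, SE 0.18; edgeR adjusted p = 0.00499). WT replicate 1 lay nearest to the Alox5-/- libraries, and leaving out each library in turn gave 0.51 to 0.96. Hdac4 and Hdac7 rose by 0.13 and 0.15 on the log2 scale. Both calls were lost without Alox5-/- replicate 2 (edgeR adjusted p = 0.0526 for Hdac4 and 0.0502 for Hdac7). Hdac4 was also lost without WT replicate 3 (0.0618), and Hdac7 without Alox5-/- replicate 1 (0.0595) or WT replicate 2 (0.0548). Hdac4 shares 22.4% of its exon bases with Gm26720, a non-coding gene on the other strand.

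Of the class IIb HDACs, Hdac6, the cytoplasmic tubulin deacetylase, was 34.3 ± 1.36 CPM in Alox5-/- cells, against 30.6 ± 1.59 CPM in WT (log2 change 0.16; edgeR adjusted p = 0.0173), a call lost without Alox5-/- replicate 1 (0.0828) or WT replicate 2 (0.0661). Hdac10, a polyamine deacetylase, was not called (0.06). Hdac11, the only class IV enzyme, was at 2.37, 2.70 and 2.25 CPM in Alox5-/- cells, against 1.74, 1.78 and 1.57 CPM in WT. These low values rest on at most 79 reads per library, and the groups did not overlap (log2 change 0.53, SE 0.15; edgeR adjusted p = 0.00652). Hdac11 shares 15.4% of its exon bases with Gm44002 on the other strand. Hdac6 and Hdac8 are the X-linked members. Among the partners named below, Rbbp7 and Tbl1x are X-linked too. Xist, the RNA of the inactive X chromosome, was 196, 181 and 167 CPM in Alox5-/- cells, against 1753, 1911 and 1683 CPM in WT (log2 change -3.30). Its relation to the genes of this report, X-linked or not, was not tested. With the sex of the mice not stated, a difference in sex or X chromosome state cannot be told apart from genotype.

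The sirtuins are deacylases that use NAD+ as a co-substrate, and 4 of the 7 rose (57.1%, against 26.8% of all tested genes). Among the mitochondrial enzymes, Sirt3 rose as described above, and Sirt5, which removes succinyl and malonyl groups, was 6.39, 6.74 and 5.62 CPM in Alox5-/- cells, against 4.45, 5.05 and 4.43 CPM in WT. All Alox5-/- libraries were above all WT libraries for Sirt5 (log2 change 0.43, SE 0.10; edgeR adjusted p = 0.00228). Sirt4, the remaining mitochondrial member, was 8.88 ± 0.400 CPM in Alox5-/- cells, against 8.16 ± 0.545 CPM in WT and was not called. Among the nuclear enzymes, Sirt6, a deacetylase of histone H3, was 26.0, 31.7 and 28.7 CPM in Alox5-/- cells, against 22.5, 20.4 and 22.1 CPM in WT. It was highest in Alox5-/- replicate 2, with a log2 change of 0.41 (SE 0.07; edgeR adjusted p = 0.00017) that ranged from 0.34 to 0.48 with each library left out. Sirt7, found in the nucleolus, fell by 0.16 on the log2 scale (edgeR adjusted p = 0.0012), and Sirt1 was not called (-0.09; edgeR adjusted p = 0.151). Sirt2, largely cytoplasmic, rose by 0.17 (edgeR adjusted p = 0.00313).

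Among the acetyltransferases, Kat2a (GCN5), the enzyme of the SAGA and ATAC coactivators, fell most. Kat2a was 93.6, 95.5 and 93.6 CPM in Alox5-/- cells, against 126, 122 and 129 CPM in WT. The groups were clearly apart, with a log2 change of -0.41 (SE 0.03; edgeR adjusted p = 1.01e-07), a 1.33-fold lower level. Its paralogue Kat2b (PCAF) did not share this, at 44.1, 43.9 and 45.3 CPM in Alox5-/- cells, against 44.3, 46.3 and 43.6 CPM in WT (log2 change -0.01; edgeR adjusted p = 0.869). Kat2a (ENSMUSG00000020918.14) lies on chromosome 11 from 100704746 to 100712465.

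The general coactivators p300 and CBP were not called. Ep300 was 174, 176 and 182 CPM in Alox5-/- cells, against 181, 175 and 174 CPM in WT. Crebbp was 61.1, 62.2 and 62.2 CPM in Alox5-/- cells, against 63.0, 60.7 and 60.7 CPM in WT. Both had a log2 change of 0.01, with standard errors of 0.03 and 0.04. Of the MYST enzymes, Kat5 (TIP60), the enzyme of NuA4, was 50.4 ± 0.899 CPM in Alox5-/- cells, against 59.0 ± 2.31 CPM in WT (log2 change -0.23; edgeR adjusted p = 0.000272), and 12.1% of its exon bases are shared with Rnaseh2c. Kat8 (MOF), which acetylates histone H4 lysines, fell by 0.16 (edgeR adjusted p = 0.0291), a call lost with DESeq2 (adjusted p = 0.0691), under upper-quartile scaling (0.0703), and on leaving out Alox5-/- replicate 2 (0.122), Alox5-/- replicate 3 (0.0886) or WT replicate 3 (0.119). Kat6a (MOZ) was 115, 122 and 121 CPM in Alox5-/- cells, against 120, 120 and 119 CPM in WT. Kat7 (HBO1) was 186, 181 and 193 CPM in Alox5-/- cells, against 184, 179 and 187 CPM in WT. Neither was called, nor was Kat6b (0.07).

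Because paralogues often occupy the same position in a complex, the ratio of 16 pairs was compared in each library, per kilobase of exon. For 9 of the 16 the ratios of the groups did not overlap, a share no larger than the 60.0% of all tested genes whose levels did not overlap, and each of the 9 reached 0.1 in an exact two-sided permutation test, the lowest value possible with 3 libraries a group, with a Benjamini-Hochberg value of 0.178 over the pairs; none can therefore pass 0.05. The ratio of Arid1b to Arid1a was 0.507 in Alox5-/- and 0.841 in WT, with a log2 difference of -0.73. The ratio of Smarca2 to Smarca4 was 0.069 in Alox5-/- and 0.052 in WT (log2 difference 0.42), that of Kat2b to Kat2a 0.337 in Alox5-/- and 0.255 in WT (0.40), and that of Gatad2b to Gatad2a 0.304 in Alox5-/- and 0.236 in WT (0.37). Smaller differences without overlap were seen for Hdac5 to Hdac4 (0.23), Smarcc2 to Smarcc1 (0.23), Mbd3 to Mbd2 (-0.21), Mta2 to Mta1 (-0.21) and Hdac10 to Hdac6 (-0.10). Ratios overlapped for Smarcd2 to Smarcd1, Brd3 to Brd2, Brd9 to Brd7, Hdac2 to Hdac1, Hdac9 to Hdac7, Ep300 to Crebbp and Kat6b to Kat6a.

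**Figure D4:**
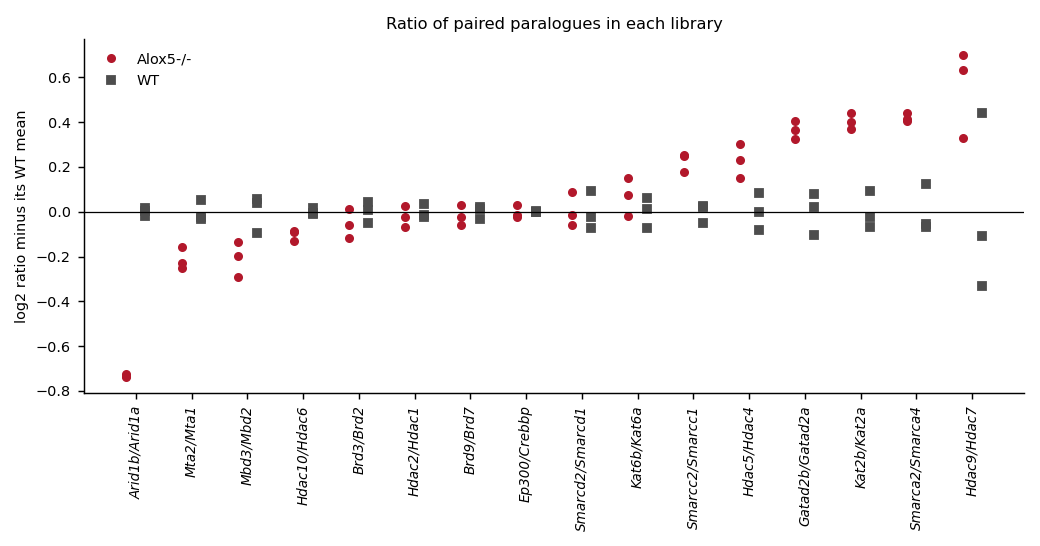
Log2 ratio of 16 paralogue pairs in each library, shown relative to the mean WT ratio of the pair, for 3 Alox5-/- (circles) and 3 WT libraries (squares). The Arid1b to Arid1a ratio lies lowest in Alox5-/-, and the pairs Gatad2b to Gatad2a, Kat2b to Kat2a and Smarca2 to Smarca4 lie above every WT library.

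Partners of the same complexes outside the 57 genes were read from a list of 90, of which 85 passed the filter. In that list 20 rose, 27 fell and 38 were not called (55.3% called), close to the 53.8% of all tested genes. The shares higher and lower were 23.5% and 31.8%, against 26.8% and 27.0% of all tested genes, the background for each count by complex below. Among 6 tested SWI/SNF partners, Phf10, a PHD finger subunit of PBAF, had the largest change, at 296 ± 4.57 CPM in Alox5-/- cells, against 173 ± 7.10 CPM in WT (log2 change 0.77, SE 0.04; edgeR adjusted p = 1.78e-10). It rose while Arid2 and Brd7 of the same form fell. Gltscr1l, an ncBAF subunit, rose by 0.17, Actb, the actin subunit, fell by 0.12, and Dpf1, Gltscr1 and Ss18l1 were not called. Of the 6 tested SWI/SNF partners, 5 had a log2 change above 0, and the median was 0.14. Smarcd3, Dpf3 and Actl6b did not pass the filter.

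Of 9 NuRD partners, 4 rose and 4 fell. Kdm1a (LSD1), a histone demethylase found with NuRD and CoREST, was 99.7 ± 1.67 CPM in Alox5-/- cells, against 73.2 ± 2.08 CPM in WT (log2 change 0.45; edgeR adjusted p = 8.01e-08). Mta3 (0.41), Chd5 (0.65) and Chd3 (0.14), paralogues of MTA1 and CHD4, were also higher. The histone-binding subunits Rbbp7 (-0.17) and Rbbp4 (-0.11) were lower, as were Pwwp2a (-0.21) and Zmynd8 (-0.10), the last losing its call without Alox5-/- replicate 3 and with upper-quartile scaling.

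In the SIN3, CoREST and NCoR corepressors, 5 of 22 rose, 6 fell and 11 were not called. Rcor3, a CoREST scaffold, was 18.7 ± 1.16 CPM in Alox5-/- cells, against 12.4 ± 1.38 CPM in WT (log2 change 0.59; edgeR adjusted p = 1.72e-05). Tbl1x (0.22) and Ncor1 (0.17) of NCoR and Dnttip1 (0.19) of the mitotic deacetylase complex also rose. The SIN3 members Sap130 (-0.32), Brms1 (-0.27), Sin3a (-0.17) and Sap18 (-0.32) fell. Neither complex moved 1 way only. Arid4b of SIN3 (0.13) was called higher, and Arid4a of SIN3 (-0.17) and Tbl1xr1 of NCoR (-0.14) lower.

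In the acetyltransferase complexes, 7 of 41 rose, 13 fell and 21 were not called. The SAGA deubiquitinase Usp22 was 101 ± 2.27 CPM in Alox5-/- cells, against 75 ± 2.71 CPM in WT (log2 change 0.43; edgeR adjusted p = 1.81e-07), and the SAGA subunits Ccdc101 (0.28) and Supt3 (0.31) rose with it. Tada2b (-0.35), the SAGA adaptor that docks KAT2A, fell, as did Csrp2bp (-0.21) of ATAC. The SAGA subunits Tada1 (-0.22), Tada3 (-0.13) and Supt20 (-0.10) were also called lower, and Atxn7 (0.17) higher, so SAGA was mixed. In the complexes of KAT6 and KAT7, Jade1 rose (0.34), while Ing5 (-0.37) and Brpf1 (-0.28) fell. Of 5 tested ISWI partners, Baz1b (-0.31), Baz1a (-0.27) and Bptf (-0.17) fell together with Smarca5, and Rsf1 rose (0.17). The scarce testis-type BET gene Brdt was higher, at 2.13 ± 0.0513 CPM in Alox5-/- cells, against 1.0 ± 0.125 CPM in WT.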

How the data were processed

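The authors deposited raw read counts per gene. The tools named in the submitters' processing notes are HTSeq and DESeq2, with the build mm10; aligner, versions, annotation release and strand setting: not given in the sources used here. That table ends with 5 summary rows that name no gene, left out of library sizes and tests: reads aligned to several places (24.4 to 24.8% of reads), reads outside genes (9.10 to 10.2%), unaligned reads (4.57 to 5.78%), ambiguous reads (0.523 to 0.547%) and reads of low mapping quality (0%).

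From the counts, edgeR 4.0.16 in R 4.3.3 was run over all genes: TMM scaling, the default expression filter (minimum count 10), then the quasi-likelihood F-test between genotypes without covariates, with Benjamini-Hochberg adjustment. Standard errors (SE) come from the fold change and its F statistic. CPM used TMM-scaled library sizes, with SD over 3 libraries. A count of 0 allows 3 counts, or 0.0775 to 0.103 CPM by gene counts without TMM scaling, covering counting error only. Exon lengths, positions and shared exon bases came from GENCODE vM21 (mm10). A length pools the exons of all annotated transcripts of a gene and can exceed that of the expressed RNA. Levels per kb and paralogue ratios therefore compare genes only roughly, while the difference of a log2 ratio between groups does not depend on length. The fits were also run on simulated counts in which far fewer genes changed than were called here. That run therefore does not check the scaling or the error rate in these data. Every pair of libraries differed by more than sampling noise, with 2.19 to 10.3 (within groups) and 35.5 to 50.2 (between groups) as chi-square over its degrees of freedom.

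The members, the partner list and the tests were chosen with earlier results of these data known. Values in every library were given for called members with a log2 fold change of at least 0.3 and for the enzymes Smarca2, Smarca4, Smarca5, Chd4, Hdac1, Hdac2, Hdac3, Ep300, Crebbp, Kat2a, Kat2b, Kat6a and Kat7, and partners were named by smallest p, up to 4 in each direction per complex; others were named after their values were seen. Alternatives were DESeq2 1.42.0, limma-voom (limma 3.58.1), DESeq2 size factors, upper-quartile scaling, no filter, a filter at 5 CPM, each library left out, and a block on replicate number.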

Additional observations from a re-analysis of the deposited data

How the results depend on the processing

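Of the 32 called members, 23 kept their call in all 13 alternatives that could test them, and 9 lost it in at least 1: Arid1a, Hdac2, Hdac4, Hdac6, Hdac7, Kat8, Mta1, Mta2 and Gatad2a, all under 0.17 in size on the log2 scale. Hdac2, Mta2, Gatad2a and Kat8 lost it with upper-quartile scaling (adjusted p = 0.126, 0.107, 0.103 and 0.0703). Of the 25 uncalled members, Brd3 was called without Alox5-/- replicate 1 (adjusted p = 0.0313) or WT replicate 2 (0.0129), Dpf2 without Alox5-/- replicate 3 (0.0361) or WT replicate 2 (0.0122) and with the block (0.0462), Bcl7b without WT replicate 2 (0.0477) and Sirt1 without WT replicate 3 (0.0336). No call of a SWI/SNF subunit, class IIa HDAC or sirtuin changed with the scaling. The count of called members was 30 with DESeq2, 32 with limma-voom, 28 with upper-quartile scaling, 27 of 55 with the stricter filter, which Hdac9 and Hdac11 did not pass, and 27 to 31 with a library left out. All called genes numbered 6583 to 7251 with a library left out. With replicate number as a block, 32 members and 7029 genes were called. Same-numbered libraries had correlations of -0.06, -0.16 and -0.04, and no library correlated best with its own number. These values showed no pairing by number but cannot exclude one, since they were centred within groups of 3 libraries. Uncalled members near 0 changed sign. Chd4 was at 0.0002 with DESeq2 and with its size factors, 0.0253 with upper-quartile scaling, 0.0064 with no filter and 0.0129 with the stricter filter; for the last 3 settings Kat6a was at 0.0251, 0.0061 and 0.0127, Pbrm1 at 0.0225, 0.0035 and 0.01, and Bcl7c at 0.025, 0.0058 and 0.0126, with 0.0002 under DESeq2. Kat2b was at 0.0186 with upper-quartile scaling and 0.0062 with the stricter filter. With a library left out, ranges were -0.0187 to 0.015 for Chd4, -0.0123 to 0.0228 for Kat6a, -0.0367 to 0.025 for Pbrm1, -0.0204 to 0.0289 for Bcl7c, -0.0291 to 0.0148 for Kat2b, -0.0111 to 0.0222 for Ep300, -0.0027 to 0.0258 for Crebbp and -0.0192 to 0.0194 for Smarcc2. Among ratios they were -0.0364 to 0.0519 for Smarcd2 to Smarcd1, -0.042 to 0.0044 for Brd9 to Brd7, -0.0462 to 0.0025 for Hdac2 to Hdac1 and -0.0176 to 0.007 for Ep300 to Crebbp. The cause of these sign changes was not tested.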

Other observations

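Remodellers outside these families were read from a list of 34 genes added after the member values had been seen, all of which passed the filter. Of them 6 rose, 16 fell and 12 were not called in Alox5-/- cells (median log2 fold change -0.09). That is 17.6% higher and 47.1% lower, against 26.8% and 27.0% of all tested genes, and the counts below stand beside the same background. In the CHD family outside NuRD, Chd9 fell most, at 241 CPM in Alox5-/- cells, against 343 CPM in WT (log2 change -0.51; edgeR adjusted p = 6.90e-09), Chd7 (-0.16) and Chd8 (-0.19) fell, and Chd2 and Chd6 rose by 0.31 each. Among 18 genes of the INO80 and SRCAP complexes, which exchange the histone variant H2A.Z, 7 fell and 3 rose. The shared AAA+ ATPase Ruvbl1 was 66.6 CPM in Alox5-/- cells, against 85.8 CPM in WT (log2 change -0.37; edgeR adjusted p = 8.17e-07), Ino80e fell by 0.35, and Actr6 rose by 0.33. Among 10 SNF2 helicases that act outside these complexes, 6 fell and 1 rose. Hells, a helicase of DNA methylation, fell by 0.33, Rad54l, of homologous recombination, by 0.30, and Hltf, of replication fork repair, rose by 0.17. Of the 22 called genes 16 kept the call in every alternative, and Ino80d, Srcap, Nfrkb, Smarcad1, Ercc6 and Ttf2 lost it in at least 1.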
